A study of Homo sapiens with 6 samples.

Results

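The inflammatory cytokine genes described here are CXCL8 together with CXCL1, CXCL2, CXCL3, CCL2, CCL20, IL6, IL1A, IL1B and LIF, which is 10 of the 58825 genes in the table. They were chosen by name, with the difference between the groups already known, so the values of these 10 genes are given as a description with no test. The study knocked down the translation factor EIF5A2 in SKOV3, a human ovarian cancer cell line, by transient transfection with the siRNA si-EIF5A2 and compared these cells with cells given a negative control siRNA (NC). Messenger RNA was sequenced in 3 libraries of each group, 48 h after transfection as the series' design text states. Both groups were the same line without other genetic change, and the knockdown used a single siRNA against 1 gene, so an effect of losing EIF5A2 and any other effect of that siRNA cannot be told apart. Nothing states whether the libraries came from separate cultures, so errors and p-values measure only the spread between libraries.

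The 10 genes encode secreted proteins of innate inflammation. CXCL1, CXCL2, CXCL3 and CXCL8 are CXC chemokines that draw neutrophils through the receptors CXCR1 and CXCR2, whereas CCL2 and CCL20 draw monocytes and CCR6-bearing lymphocytes and dendritic cells. IL1A and IL1B encode the interleukin-1 cytokines, which signal through IL1R1, IL1RAP, MYD88 and the IRAK kinases to NF-kappaB, and IL6 and LIF encode cytokines that signal through IL6ST (gp130) to STAT3. Many of these genes are known to be transcribed under NF-kappaB and AP-1 factors, and their messages are known to be short-lived through AU-rich elements in the 3′ UTR. Ovarian cancer cells are known to secrete several of them.

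The libraries held 46900204 to 74142267 estimated counts. Low values lay at multiples of about 3.76 counts, so that 1 fragment appears to be worth that many counts, and 3 fragments, taken as the limit for a gene at 0, amount to 0.155 to 0.240 CPM (counts relative to the TMM-scaled library size from edgeR). Such limits cover counting error only. In si-EIF5A2 the targeted gene EIF5A2 stood at 3.69 ± 0.817 CPM, against 29.1 ± 1.15 CPM in NC (mean ± SD of 3 libraries, as for all values below written with ±). Of 10 epithelial and SKOV3 markers, 8 had a mean over 1 CPM and MUC16 was at 0 in every library. The summed level of this list was 1508 to 1675 CPM in NC and 958 to 1170 CPM in si-EIF5A2. Of 10 leukocyte markers, which matter here because leukocytes are a known source of these cytokines, only CD68 had a mean over 1 CPM. The leukocyte sum was 42.3 to 58.9 CPM in NC and 30.5 to 56.9 CPM in si-EIF5A2, and 5 of the 10, among them the defining markers PTPRC and CD3E, had 0 counts in all 6 libraries. The sum of 6 endothelial markers was 28.2 to 32.4 CPM in NC and 1.11 to 1.88 CPM in si-EIF5A2, most of it CDH5 (28.3 ± 2.13 CPM against 0.833 ± 0.234 CPM). The sum of 7 fibroblast markers was 1.17 to 1.52 CPM in NC and 0.861 to 3.46 CPM in si-EIF5A2. The part of the epithelial, endothelial and fibroblast values in the cytokine levels was not tested.

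Of the 10 cytokine genes, 9 had counts and were tested in the fit across all genes, and CCL2 had 0 counts in every library. In all 9 the si-EIF5A2 libraries lay above the NC libraries without overlap. Among all 16208 genes tested, 51.2% had groups that did not overlap and 24.7% had every si-EIF5A2 library above every NC library. With calls made at adjusted p below 0.05 together with more than 1.5-fold difference, 8 of the 9 were called higher, none lower and IL6 was not called. Under that rule 24.6% of all genes were called, 11.1% as higher and 13.6% as lower. Because the 10 genes were chosen on this contrast, nothing is read from these counts. The median log2 fold change of the 9 genes was 1.42, and that of all genes tested was -0.01. In bulk RNA, more cells that express a gene and more RNA of it per cell cannot be told apart. Summed over the 10 genes, the mean level was 399 ± 2.28 CPM for NC libraries and 1190.4 ± 45.9 CPM for si-EIF5A2 libraries, a ratio of 2.99. They made up 0.0390% to 0.0401% of the counts in the NC libraries and 0.116% to 0.125% in the si-EIF5A2 libraries.

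**Figure D1:**
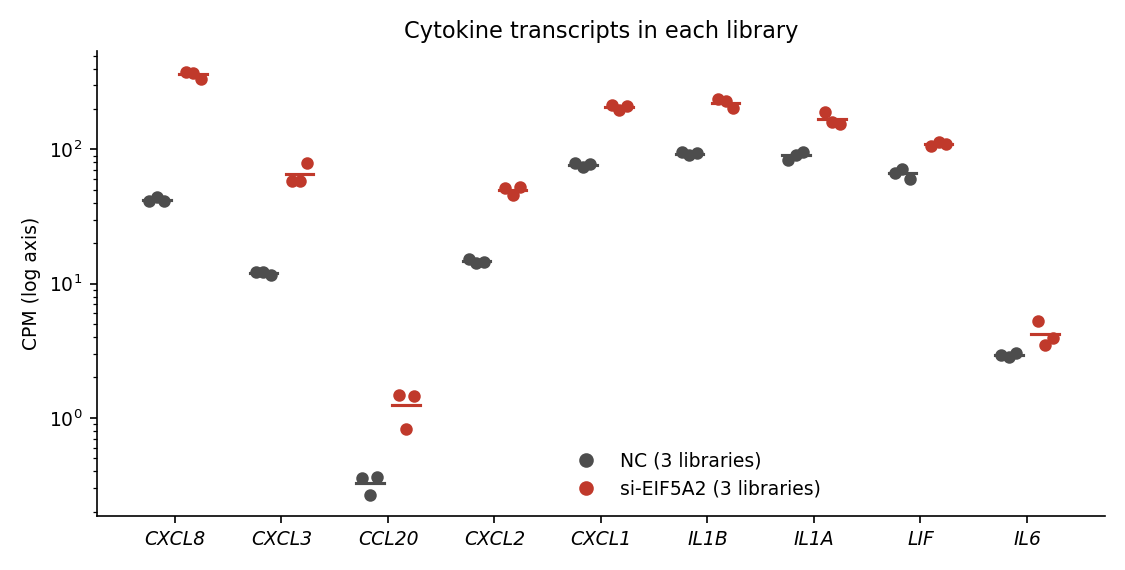
Level of 9 cytokine genes in each library, in CPM on a log axis, with a line at the mean of each group of 3 libraries and CCL2 left out because it had 0 counts. The si-EIF5A2 points lie above the NC points for each of the 9 genes, with the widest gap for CXCL8 (42.1 against 363 CPM) and the narrowest for IL6 (2.94 against 4.24 CPM).

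CXCL8, which encodes interleukin-8, showed the largest difference of the 9 genes. It had 41.4, 44.1 and 40.9 CPM in NC replicates 1 to 3 and 378, 374 and 336 CPM in si-EIF5A2 replicates 1 to 3. The lowest si-EIF5A2 library was thus far above the highest NC library, and the spread within each group was small beside the gap. The mean went from 42.1 ± 1.68 to 363 ± 23.1 CPM, a ratio of 8.60 and a log2 fold change of 3.10 with a standard error of 0.08. The counts behind these values were 1924 to 3121 per NC library and 16120 to 19500 per si-EIF5A2 library, so that counting error is small here. CXCL8 made up 10.6 ± 0.380% of the summed CPM of the 10 genes in NC and 30.4 ± 1.28% in si-EIF5A2.

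CXCL1, CXCL2 and CXCL3, the GRO chemokines, followed with smaller and unequal differences. CXCL3 had 12.3, 12.2 and 11.5 CPM in the NC libraries and 58.0, 58.0 and 79.5 CPM in the si-EIF5A2 libraries. Replicate 3 of si-EIF5A2 stood above the other two, and the mean went from 12.01 ± 0.439 to 65.2 ± 12.4 CPM (ratio 5.42, log2 fold change 2.44, standard error 0.14). Without that replicate the log2 fold change was 2.27. CXCL2 had 15.4, 14.3 and 14.6 CPM in NC and 51.3, 45.5 and 52.9 CPM in si-EIF5A2 (ratio 3.38, log2 fold change 1.76, standard error 0.10). CXCL1, the most abundant of the 3 in both groups also per kb of exon, had 79.0, 73.8 and 78.1 CPM in NC and 214, 196 and 209 CPM in si-EIF5A2 (ratio 2.68, log2 fold change 1.42, standard error 0.07). These 3 genes have similar messages, and reads could be shared between them. The transcripts of CXCL1 and CXCL2 were 88.7% identical over 1101 aligned bases, those of CXCL2 and CXCL3 85.4% over 582, and those of CXCL1 and CXCL3 83.1% over 599, so the split between them is less certain than their sum.

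The 4 CXC genes lie in the chemokine cluster of chromosome 4 (GENCODE 29, GRCh38). CXCL8 is on the plus strand at chr4:73740506-73743716 and CXCL1 on the plus strand at chr4:73869393-73871242. CXCL3, at chr4:74036589-74038807, and CXCL2, at chr4:74097035-74099293, are on the minus strand. Within 500 kb of CXCL8 there were 15 protein-coding genes, of which 9 encode chemokines. The chemokine genes between and beside the 4 were close to silent in both groups. CXCL6, PF4V1 and PF4 had 0 counts in every library, PPBP had 0, 8 and 12 counts in the si-EIF5A2 libraries and none in NC, and CXCL5 had 4 counts in si-EIF5A2 replicate 2 alone. These counts stand for 1 to 3 fragments each, and no fold is given. Of the neighbours of other kinds, ANKRD17 went from 57.1 ± 3.63 to 63.6 ± 9.45 CPM and MTHFD2L from 4.73 ± 0.989 to 5.71 ± 0.453 CPM. Their log2 fold changes were 0.16 (standard error 0.12) and 0.27 (standard error 0.20), and their groups overlapped. AFP, which encodes alpha-fetoprotein, was low in both groups, at 0.272 ± 0.109 and 1.15 ± 0.169 CPM, and its groups did not overlap. ANKRD17, MTHFD2L and AFP are named for their position only.

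**Figure D2:**
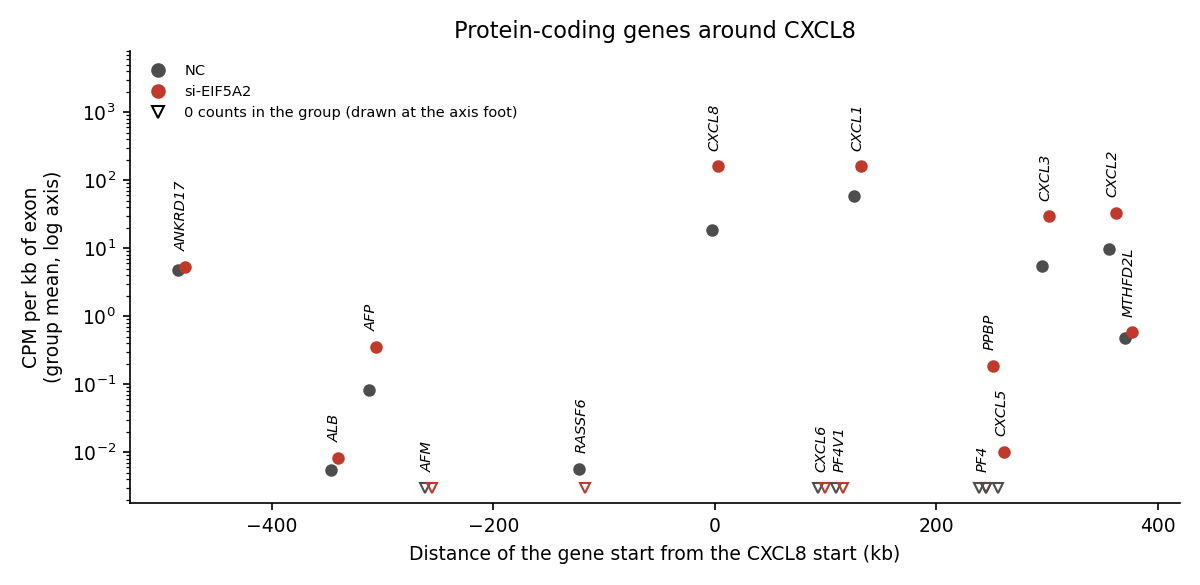
Mean level of the 15 protein-coding genes within 500 kb of CXCL8, in CPM per kb of exon on a log axis, against the distance of each gene start from the CXCL8 start, with triangles for a group at 0 counts. CXCL8, CXCL1, CXCL3 and CXCL2 stand above the other chemokine genes of the cluster, and their si-EIF5A2 points lie above their NC points.

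The start regions of some of these genes share short sequences. Promoters of RefSeq (GRCh38.p14), from 250 bases before to 50 bases after the start of the gene, were at hand for 8 of the 10 genes, CCL2 and LIF being the ones without an entry. They were searched on both strands for the NF-kappaB-type motif GGNNTTTCC and the AP-1-type motif TGANTCA, where N is any base. The promoters of 5 genes are shown because they carry the first motif, in 4 genes of 1 cluster that differ in size of response and in IL6, whose difference was the smallest of the 9. Capitals mark GGNNTTTCC.
CXCL8 promoter, chr4:73740319-73740618, plus strand: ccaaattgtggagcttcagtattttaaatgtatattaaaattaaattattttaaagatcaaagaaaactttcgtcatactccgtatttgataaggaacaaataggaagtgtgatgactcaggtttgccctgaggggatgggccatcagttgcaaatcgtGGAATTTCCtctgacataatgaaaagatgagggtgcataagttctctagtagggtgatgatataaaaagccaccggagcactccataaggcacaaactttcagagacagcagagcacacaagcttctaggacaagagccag
CXCL1 promoter, chr4:73869143-73869442, plus strand: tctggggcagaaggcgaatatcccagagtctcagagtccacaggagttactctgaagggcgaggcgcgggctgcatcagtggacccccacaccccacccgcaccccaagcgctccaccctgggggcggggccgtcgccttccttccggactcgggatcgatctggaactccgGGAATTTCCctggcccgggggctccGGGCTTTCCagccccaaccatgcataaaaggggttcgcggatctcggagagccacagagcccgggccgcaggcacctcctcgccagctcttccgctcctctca
CXCL2 promoter, chr4:74099146-74099445, minus strand: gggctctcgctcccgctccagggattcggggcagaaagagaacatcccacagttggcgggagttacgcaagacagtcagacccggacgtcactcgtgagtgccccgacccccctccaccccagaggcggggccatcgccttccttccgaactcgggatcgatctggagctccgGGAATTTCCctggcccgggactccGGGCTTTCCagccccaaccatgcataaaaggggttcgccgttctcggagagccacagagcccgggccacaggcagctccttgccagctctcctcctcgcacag
CXCL3 promoter, chr4:74038640-74038939, minus strand: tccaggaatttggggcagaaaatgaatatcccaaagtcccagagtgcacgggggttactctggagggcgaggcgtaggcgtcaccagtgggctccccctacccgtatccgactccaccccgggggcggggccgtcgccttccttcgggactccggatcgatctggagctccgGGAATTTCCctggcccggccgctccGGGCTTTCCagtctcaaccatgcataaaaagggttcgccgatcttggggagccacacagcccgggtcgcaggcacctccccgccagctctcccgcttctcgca
IL6 promoter, chr7:22726950-22727249, plus strand: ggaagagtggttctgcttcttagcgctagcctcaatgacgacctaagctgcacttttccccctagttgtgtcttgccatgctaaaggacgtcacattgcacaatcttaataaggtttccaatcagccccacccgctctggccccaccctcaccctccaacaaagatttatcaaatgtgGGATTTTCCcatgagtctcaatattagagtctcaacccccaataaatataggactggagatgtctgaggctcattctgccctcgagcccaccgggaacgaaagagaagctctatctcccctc

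CXCL1, CXCL2 and CXCL3 each held 2 matches to GGNNTTTCC, GGAATTTCC and GGGCTTTCC, which began 78 and 53 bases before the start in CXCL1 and CXCL3 and 77 and 53 bases before it in CXCL2. CXCL8 held 1 match, again GGAATTTCC, 91 bases before the start. IL6 held GGATTTTCC 72 bases before the start, and CCL20 held a match on the opposite strand 79 bases before it. The motif was thus in 6 of the 8 genes, and not in the windows of IL1A and IL1B. Among all 35116 promoters of the same length, 2198 (6.26%) held it. The motif TGANTCA was in CXCL8, 137 bases before the start and in lower case above, and in both promoters listed for IL1A, against 7.71% of all promoters. Many of these genes are known NF-kappaB and AP-1 targets, and the GRO promoters resemble each other. Their choice by name is thus not independent of the motifs, and nothing is read from these shares. The 2 motifs did not overlap in any of these windows. Of genes tested that had GGNNTTTCC, 13.4% of 1017 were called higher in si-EIF5A2, and of those without it 12.1% of 10154. For TGANTCA the shares were 13.9% of 834 and 12% of 10337. The genes with a motif include cytokine genes that were chosen on this contrast. A match is a string of letters and says nothing of whether a factor binds there.

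The promoters of the GRO genes are themselves near copies. CXCL1 and CXCL3 were 82.5% identical over the aligned window, CXCL2 and CXCL3 73.7%, and CXCL1 and CXCL2 69.8%, with a longest identical stretch of 42 bases between CXCL1 and CXCL2. The promoter of CXCL8 was 43.1%, 43.8% and 44.2% identical to those of CXCL1, CXCL2 and CXCL3, which is in the range of the other pairs among the 8 genes. The 4 CXC genes therefore share the motif, but over the window as a whole only the 3 GRO genes resemble each other.

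The CC chemokines were low or absent. CCL20 had 0.356, 0.268 and 0.362 CPM in the NC libraries and 1.47, 0.824 and 1.46 CPM in the si-EIF5A2 libraries. Replicate 2 was the lowest of its group in both NC and si-EIF5A2, and the groups did not overlap. The ratio was 3.803 and the log2 fold change 1.92, with a standard error of 0.43 that was the largest of the 9 genes. These levels rest on 4.5 to 6.9 fragments per NC library and 11.4 to 19.9 fragments per si-EIF5A2 library. CCL2 had 0 counts in each of the 6 libraries, which allows up to 0.155 to 0.240 CPM. CCL20 lies on the plus strand at chr2:227805739-227817564 and CCL2 on the plus strand at chr17:34255218-34257203.

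Both interleukin-1 genes were abundant in control cells and higher after si-EIF5A2 transfection. IL1B had 95.2, 90.8 and 93.6 CPM in NC and 237, 229 and 203 CPM in si-EIF5A2 (ratio 2.39, log2 fold change 1.26, standard error 0.08). IL1A had 82.8, 91.3 and 96.2 CPM in NC and 192, 159 and 156 CPM in si-EIF5A2 (ratio 1.87, log2 fold change 0.91, standard error 0.10). In both genes replicate 1 was the highest of the si-EIF5A2 libraries, and the lowest si-EIF5A2 library was well above the highest NC library. Without that replicate the log2 fold changes were 1.21 and 0.80. The 2 genes are neighbours on the minus strand of chromosome 2, IL1A at chr2:112773915-112784590 and IL1B at chr2:112829751-112836903.

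The members of the IL-6 family differed least. LIF had 66.9, 71.2 and 60.7 CPM in NC and 105, 113 and 111 CPM in si-EIF5A2 (ratio 1.66, log2 fold change 0.73, standard error 0.08). IL6 had 2.93, 2.82 and 3.06 CPM in NC and 5.28, 3.51 and 3.94 CPM in si-EIF5A2 (ratio 1.44, log2 fold change 0.53, standard error 0.21). All 3 si-EIF5A2 libraries were above the NC libraries for IL6, with replicate 1 the highest. Without it the log2 fold change was 0.33, and without si-EIF5A2 replicate 2 it was 0.65. LIF is on the minus strand at chr22:30240447-30246851 and shares exon positions with LIF-AS1 and AC004264.1 on the other strand, and IL6, on the plus strand at chr7:22725884-22732002, does so with STEAP1B and AC073072.1. Whether counting used the strand is not given in the sources used here, so reads of these partners may be included.

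**Figure D3:**
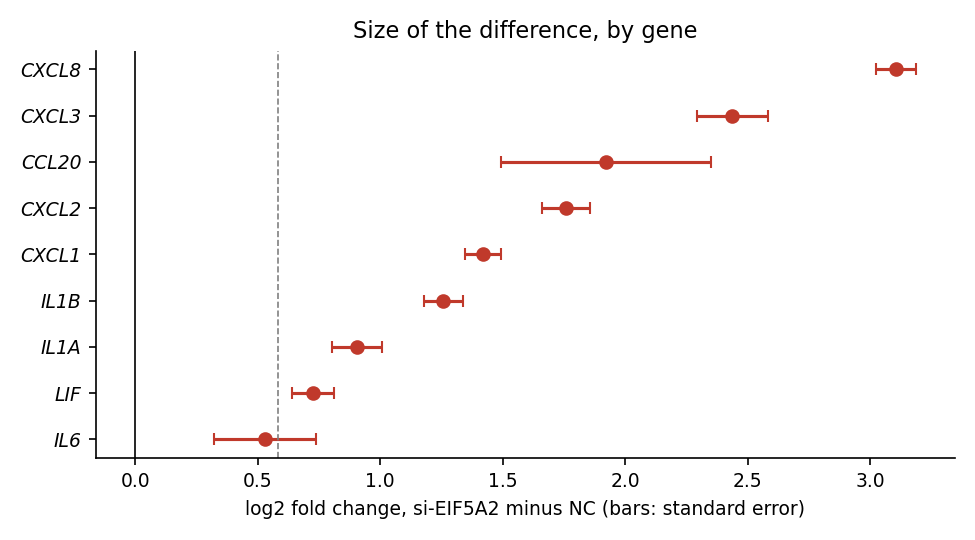
Log2 fold change of 9 cytokine genes, si-EIF5A2 minus NC, with bars for the standard error of the edgeR fit and a dashed line at a fold change of 1.5. CXCL8 (3.10) and CXCL3 (2.44) lie farthest right, IL6 (0.53) is the one gene left of the dashed line, and CCL20 has the widest bar.

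Levels of different genes were compared per kb of exon. This length covers the exons of all annotated transcripts of a gene, so it can exceed that of a single message. For CXCL3 it was 2219 bases, against 1075 bases in the transcript with the longest coding sequence. The order below and its overlaps hold for this choice of length, and another choice could change them. In NC the order was CXCL1 (59.4 CPM per kb), IL1A (42.4), IL1B (30.1), CXCL8 (18.5), LIF (16.7), CXCL2 (9.84), CXCL3 (5.41), IL6 (1.42) and CCL20 (0.206), and no neighbours in this order overlapped, although the lowest CXCL8 value (18.0) and the highest LIF value (17.9) were close. In si-EIF5A2 CXCL8 (159.4 CPM per kb) and CXCL1 (159.0) came first and overlapped. IL1A (79.4) and IL1B (72.0) overlapped with each other, as did CXCL2 (33.3) with CXCL3 (29.4) and CXCL3 with LIF (27.6), and IL6 (2.05) and CCL20 (0.784) came last. CXCL8 thus stood in place 4 of the 10 genes in NC and level with CXCL1 in si-EIF5A2, and LIF stood above CXCL2 and CXCL3 in NC and not in si-EIF5A2.

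All 10 messages carry the AU-rich pentamer ATTTA in the 3′ UTR (transcript with the longest coding sequence, GENCODE 29, GRCh38). The number of pentamers was 10 in CXCL2, 9 in CXCL8, 7 in CXCL3 and LIF, 6 in IL6 and IL1B, 5 in CXCL1 and IL1A, 3 in CCL20 and 1 in CCL2. Over 12817 tested genes with a 3′ UTR the median was 2 pentamers, and 1.55 per kb. Per kb the 10 genes ranged from 2.18 in LIF to 14.0 in IL6. The longer element TTATTTATT was in CXCL2 (5 matches), CXCL1 (3), IL1B and LIF (2 each) and CXCL3 and CXCL8 (1 each), and not in CCL2, CCL20, IL6 or IL1A. It was in 8.31% of all 12817 genes. The densest 30 bases of the 3′ UTR are shown for CXCL2 and CXCL8, which had the most pentamers, and for IL1B as an example from outside the chemokine cluster, with ATTTA in capitals.
CXCL8 3′ UTR, chr4:73743108-73743137, plus strand: taacctATTTAttATTTAtgtATTTATTTA
CXCL2 3′ UTR, chr4:74097590-74097619, minus strand: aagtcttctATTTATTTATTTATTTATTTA
IL1B 3′ UTR, chr2:112830003-112830032, minus strand: tgagcaaccgcttccctATTTATTTATTTA

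Across all tested genes with a 3′ UTR, 18.6% of the 1065 genes with TTATTTATT and 12% of the 11752 without it were called higher in si-EIF5A2, against 12.6% of all. The 1065 include CXCL1, CXCL2, CXCL3, CXCL8, IL1B and LIF, which were chosen on this contrast. Of the 250 genes with 2 or more matches, 16.8% were called higher. The UTRs of the 1065 genes were longer than those of the 11752, with a median of 2724 bases against 920.5. The part of UTR length in this difference of shares was not tested. Pentamers per kb follow for the 9 cytokine genes with counts, from the largest log2 fold change (3.10) to the smallest (0.53). They were 7.19 in CXCL8, 10.4 in CXCL3, 6.65 in CCL20, 13.9 in CXCL2 and 7.08 in CXCL1. In the remaining genes they were 9.84 in IL1B, 4.34 in IL1A, 2.18 in LIF and 14.0 in IL6. A relation between the 2 measures was not tested.

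The genes that respond to or control these cytokines were taken from lists of known pathway members, without the 10 genes themselves. These lists were also chosen with earlier results of these data known, so their counts and p-values are not independent of this contrast. Adjusted p-values for them come from the quasi-likelihood test of edgeR, adjusted by Benjamini and Hochberg's method over all 16208 genes, in which 24.6% of genes were called (11.1% higher and 13.6% lower). Of the called genes named below, CCL3, IL6ST, LIFR, OSMR, IL11RA, JUNB and IKBKG share exon positions with a gene on the other strand, and IL1RAP, IL1RL1, IL11RA, KHSRP, REL and IL32 with a gene or small RNA on the same strand, so their values are less certain.

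**Figure D4:**
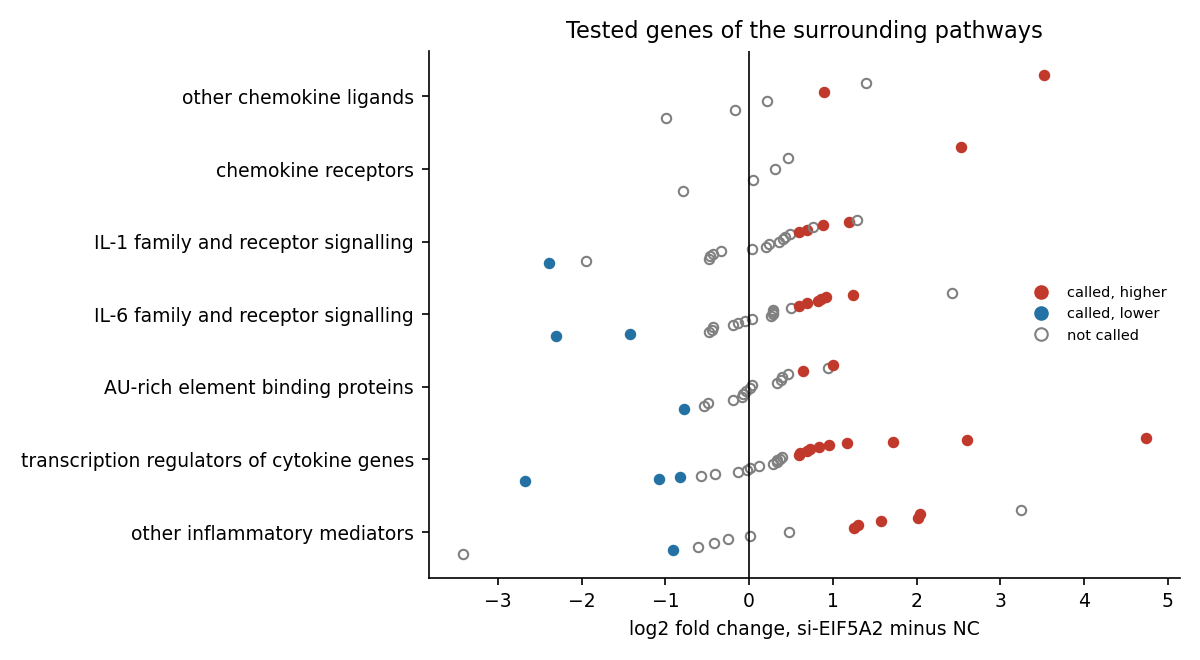
Log2 fold change, si-EIF5A2 minus NC, of the tested genes in 7 lists around the cytokines, with filled points for called genes and open points for the others (IL1RL1 left out because NC is at 0). Of the tested genes, 10 of 24 transcription regulators were called higher and 3 lower, and the farthest point to the right is EGR1 at 4.74.

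The main receptors of the 6 chemokines were not detected in these libraries. CXCR1 and CXCR2, the receptors of CXCL8 and the GRO chemokines, CCR2, the receptor of CCL2, and CCR6, the receptor of CCL20, had 0 counts in every library. Of 23 chemokine receptors, 15 were at 0 in all libraries, 5 were tested and 1 was called. The called gene was CXCR4, the receptor of CXCL12, which had 3.58, 3.66 and 3.38 CPM in NC and 21.2, 19.4 and 20.6 CPM in si-EIF5A2 (log2 fold change 2.53, standard error 0.12, edgeR adjusted p = 6.81e-06).

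Most other chemokine ligands were also absent. Of 38, 26 were at 0 in all libraries and 6 were tested, with 2 called higher and 0 lower and a median log2 fold change of 0.55. CCL3 (MIP-1 alpha), which draws monocytes and lymphocytes, had 1.55, 1.31 and 0.978 CPM in NC and 13.6, 16.2 and 14.8 CPM in si-EIF5A2 (log2 fold change 3.53, standard error 0.20, edgeR adjusted p = 1.31e-05). Its transcript is 95.8% identical to CCL3L1 over 782 bases, so reads may be split between them. CCL5 (RANTES), which draws T cells and monocytes, rose from 43.2 ± 4.11 to 80.6 ± 3.41 CPM (log2 fold change 0.90, standard error 0.09, edgeR adjusted p = 0.000219). CXCL10 and CXCL11, which are induced by interferon and bind CXCR3, had log2 fold changes of -0.16 (edgeR adjusted p = 0.521) and 0.21 (edgeR adjusted p = 0.622). They are outside the rule for named genes and were picked once their values had been seen.

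In the IL-1 family and its signalling, 20 of 32 genes were tested, 5 were called higher and 1 lower, and the median log2 fold change was 0.38. Of the receptor subunits, IL1RAP passed the test and IL1R1 did not. IL1RAP, the accessory chain shared by the receptors of IL-1 and IL-33, rose from 19.2 ± 1.71 to 35.2 ± 3.65 CPM (log2 fold change 0.88, standard error 0.12, edgeR adjusted p = 0.000679). IL1R1, the chain that binds IL-1, was near the detection limit, at 0.494 ± 0.320 CPM for NC and 0.126 ± 0.111 CPM for si-EIF5A2 (log2 fold change -1.95, edgeR adjusted p = 0.213). The decoy receptor IL1R2 had 0, 8 and 8 counts in NC and none in si-EIF5A2, and IL1RN, the receptor antagonist, had 12, 13 and 4 counts in NC and 0, 4 and 0 in si-EIF5A2. Both were below the filter and untested.

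Downstream of the receptor, IRAK2, a kinase of the MYD88 complex, rose from 29.98 ± 2.45 to 68.5 ± 0.370 CPM (log2 fold change 1.19, standard error 0.09, edgeR adjusted p = 4.07e-05). NLRP3, the inflammasome sensor upstream of IL-1 beta maturation, had a log2 fold change of 0.69 (standard error 0.11, edgeR adjusted p = 0.00176). PYCARD, of the same list and outside the rule for named genes, had 0 counts in every library, and maturation itself was not measured. The adaptor MYD88 had 0.60 (standard error 0.14, edgeR adjusted p = 0.00996), a value that lost its call when NC replicate 2 or si-EIF5A2 replicate 1 or 3 was left out. SIGIRR, a receptor of the family known to damp IL-1 signalling, was the gene called lower. It had 41.7, 35.3 and 19.2 CPM in NC and 5.38, 8.53 and 4.36 CPM in si-EIF5A2 (log2 fold change -2.40, standard error 0.38, edgeR adjusted p = 0.00402), so that NC replicate 3 was low in its group and still above all si-EIF5A2 libraries. IL1RL1, the IL-33 receptor and the remaining called gene, had 0 counts in NC and 44, 34 and 42 counts in si-EIF5A2, at least 4.31-fold higher when each NC library is set at its limit of 3 fragments. Its mean was under 1 CPM, its exons overlap those of IL18R1, and it is outside the rule for named genes.

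In the IL-6 family and its signalling, 21 of 24 genes were tested, 6 were called higher and 2 lower, with a median log2 fold change of 0.28. The higher ones were receptor chains and STAT3 pathway genes. IL6ST, the gp130 chain that IL-6 and LIF share, rose from 187 ± 10.3 to 355 ± 41.1 CPM (log2 fold change 0.92, standard error 0.10, edgeR adjusted p = 0.000234). LIFR, the LIF receptor, went from 4.77 ± 0.507 to 7.23 ± 0.984 CPM (log2 fold change 0.60, standard error 0.17, edgeR adjusted p = 0.024). Its call was lost in 6 of 13 refits, among them the replicate block and those without NC replicate 2 or 3 or si-EIF5A2 replicate 1 or 3 (0.48 to 0.68 over all refits). OSMR, the oncostatin M receptor, rose from 79.2 ± 4.52 to 140.5 ± 7.497 CPM (log2 fold change 0.83, standard error 0.08, edgeR adjusted p = 0.000144). IL6R, the chain that binds IL-6, varied widely within groups, with 5.95, 1.28 and 1.51 CPM in NC and 2.35, 1.57 and 6.82 CPM in si-EIF5A2 (log2 fold change 0.29, edgeR adjusted p = 0.827). STAT3 went from 87.0, 85.0 and 83.8 CPM to 199, 203 and 202 CPM (log2 fold change 1.24, standard error 0.06, edgeR adjusted p = 9e-06). SOCS3, a feedback inhibitor that STAT3 is known to induce, had a log2 fold change of 0.86 (standard error 0.09, edgeR adjusted p = 0.000195).

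The direction was not shared by the whole family. IL11, a cytokine that also signals through gp130, fell from 20.0, 18.8 and 18.9 CPM to 3.62, 3.74 and 4.29 CPM (log2 fold change -2.31, standard error 0.13, edgeR adjusted p = 1.18e-05). Its receptor IL11RA had a log2 fold change of -1.42 (standard error 0.38, edgeR adjusted p = 0.021), a call that did not survive leaving out NC replicate 1, si-EIF5A2 replicate 1 or si-EIF5A2 replicate 2, and its exons overlap those of GALT. LIF and IL11, both ligands of gp130 receptors, therefore lay on opposite sides of 0.

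Of 24 transcription regulators of cytokine genes, all were tested, 10 were called higher and 3 lower, and the median log2 fold change was 0.35. EGR1, an immediate early zinc-finger factor, had 2.08, 1.82 and 1.74 CPM in NC and 55.8, 46.9 and 48.3 CPM in si-EIF5A2 (log2 fold change 4.74, standard error 0.13, edgeR adjusted p = 4.18e-06). FOS, an AP-1 subunit, rose from 1.52 ± 0.389 to 9.19 ± 2.18 CPM (log2 fold change 2.60, standard error 0.26, edgeR adjusted p = 0.000192). RELB, the NF-kappaB subunit of the alternative pathway, had 42.9, 21.3 and 32.5 CPM in NC and 104, 115 and 98.2 CPM in si-EIF5A2 (log2 fold change 1.71, standard error 0.25, edgeR adjusted p = 0.0025). NFKBIZ, a nuclear co-activator of IL6 and other secondary NF-kappaB targets, rose from 10.7 ± 0.509 to 24.0 ± 2.94 CPM (log2 fold change 1.17, standard error 0.12, edgeR adjusted p = 0.000241). The other genes called higher were NFKB2, CEBPD, JUND, JUNB, NFKBIA and NFKB1, with log2 fold changes from 0.60 to 0.95. Of these, NFKB1 lost its call in 5 of 13 refits (0.56 to 0.61 over all refits), 2 of them without NC replicate 2 or si-EIF5A2 replicate 3. NFKBIA lost it in 4 (0.56 to 0.68), 3 of them without NC replicate 2, NC replicate 3 or si-EIF5A2 replicate 2. CEBPD lost it in the refits that left out replicate 2 of either group, and JUND without NC replicate 3, while NFKB2 and JUNB kept theirs in all 13. RELA, which encodes the p65 subunit, had 0.33 (standard error 0.24, edgeR adjusted p = 0.345). These 7 genes are outside the rule for named genes.

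The called falls were FOSL1, IKBKG and REL. FOSL1, which encodes the AP-1 subunit FRA-1, fell from 1285, 1170 and 1100.1 CPM to 570, 557 and 560.0 CPM (log2 fold change -1.08, standard error 0.08, edgeR adjusted p = 3.23e-05). IKBKG, the regulatory subunit of the IkappaB kinase, fell from 25.8 ± 2.17 to 14.5 ± 1.31 CPM (log2 fold change -0.83, standard error 0.12, edgeR adjusted p = 0.000956). REL, with a mean under 1 CPM over the 6 libraries and outside the rule, had a log2 fold change of -2.68 (edgeR adjusted p = 0.00279). Subunits of both NF-kappaB and AP-1 thus stood among the called genes in each direction.

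Of 16 proteins that bind AU-rich elements or control their binding, all were tested, 2 were called higher and 1 lower, and the median log2 fold change was 0.02, close to that of all genes. ZC3H12C, a relative of the RNase regnase-1, rose from 12.6 ± 0.606 to 25.2 ± 2.36 CPM (log2 fold change 1.004, standard error 0.11, edgeR adjusted p = 0.000324). ZFP36L1, which promotes decay of AU-rich messages, had a log2 fold change of 0.65 (standard error 0.09, edgeR adjusted p = 0.000712). KHSRP, which also promotes decay of such messages, fell from 242 ± 12.3 to 141 ± 6.79 CPM (log2 fold change -0.78, standard error 0.07, edgeR adjusted p = 0.000146). With no limit on the fold change, 8 of the 16 were called, 5 higher and 3 lower. Under that looser rule 5974 of all 16208 genes were called, 2911 higher and 3063 lower. The decay factors ZFP36L1 and KHSRP therefore moved in opposite directions.

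Among 22 other inflammatory mediators, 13 were tested, 5 were called higher and 1 lower, and the median log2 fold change was 0.47. The growth factor CSF2 (GM-CSF) had 1.37, 1.21 and 0.978 CPM in NC and 5.20, 4.52 and 5.02 CPM in si-EIF5A2 (log2 fold change 2.04, standard error 0.21, edgeR adjusted p = 0.000226). IL32, a cytokine known to induce other inflammatory cytokines, had 23.6, 23.3 and 21.2 CPM in NC and 86.5, 96.5 and 92.8 CPM in si-EIF5A2 (log2 fold change 2.02, standard error 0.09, edgeR adjusted p = 5.57e-06). CSF3 (G-CSF) had 1.58 (standard error 0.42, edgeR adjusted p = 0.0267), which was not called without NC replicate 3, si-EIF5A2 replicate 1 or si-EIF5A2 replicate 3. IL15, which supports natural killer cells, had 1.31 (standard error 0.21, edgeR adjusted p = 0.00206). IL23A, a subunit of interleukin-23, had -0.91 (standard error 0.29, edgeR adjusted p = 0.0395), a call that was lost in 8 of the alternative settings. TNF, outside the rule, went from 2.25 ± 0.398 to 1.47 ± 0.287 CPM (log2 fold change -0.61, edgeR adjusted p = 0.12).

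The genes whose profile was most like that of CXCL8 were sought among 8843 genes averaging 10 CPM or more, by the root-mean-square difference of log2 CPM, each gene set to its NC mean, over the 6 libraries. They were TNFSF15 (difference 0.172), MIR100HG (0.191), SERPINB7 (0.201), TMEM200A (0.210) and RRAD (0.215), none of them a cytokine gene of the 10. TNFSF15, which encodes the TNF family ligand TL1A, had 9.80, 12.03 and 12.8 CPM in NC and 115, 97.1 and 109.6 CPM in si-EIF5A2. Of the 10 genes, CXCL3 was nearest (0.525), followed by CXCL2 (0.962), CCL20 (0.990), CXCL1 (1.19), IL1B (1.31), IL1A (1.56), LIF (1.68) and IL6 (1.85). With 2 groups, this measure reflects mainly the size of the difference between them.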

How the data were processed

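Messenger RNA of SKOV3 cells (NC and si-EIF5A2, n = 3 libraries each) was sequenced as paired-end reads. Expression was estimated by the authors with StringTie and ballgown, and the deposited table holds estimated counts for each gene as whole numbers, not normalized, with replicates kept apart. The submitters' processing notes list the aligner Bowtie 0.12.2 and the mouse builds mm8 and mm9, although the identifiers are human. The human build is not given in the sources used here. The estimated counts are not read counts, since low values lie at multiples of about 3.76. The test planned for counts was run on them, rounding having changed nothing.

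Groups and replicate numbers came from the sample labels. The 6 libraries were fitted together in edgeR 4.0.16 under R 4.3.3, with 1 term for condition, after filterByExpr and TMM scaling. Robust quasi-likelihood F tests were used, and p-values were adjusted by the Benjamini-Hochberg method over 16208 genes. Calls needed adjusted p below 0.05 and more than 1.5-fold difference. Standard errors were taken from the log2 fold change and the root of its F statistic. The steps were tested on simulated data with 200 changed genes among 15755 tested. They recovered 73% of these genes, 87% of the 4-fold and 59% of the 2-fold changes, and 5.19% of calls were false. In the deposited data 24.6% of genes were called and low values came in steps, unlike the simulated data, so these rates may not hold here. A gene that was not called may still differ. Positions, exon lengths, 3′ UTRs and overlaps came from GENCODE 29 (GRCh38), in which 58552 of 58825 identifiers were found, and promoters from RefSeq (GRCh38.p14).

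The 10 cytokine genes and all lists were chosen with earlier results of these data known. Genes named are the 10 cytokines, EIF5A2, the receptors of the 10, up to 4 called genes per list and direction with a mean of at least 1 CPM, largest change first, and the 5 genes most like CXCL8. Others are said to be outside the rule. Alternatives tried were normalization by RLE or upper quartile, DESeq2 1.42.0, no filter, at least 10 counts in every library, a replicate block, no fold limit, an unadjusted p under 0.05 with a fold change over 2, counts divided by their step, and leaving out each library.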

Additional observations from a re-analysis of the deposited data

How the results depend on the processing

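The log2 fold change of each of the 9 tested cytokine genes moved by less than the spread between replicates in all 13 settings that refitted it. Leaving out 1 of 3 libraries shifts a group mean by less than the spread of that group. For those settings the outcome was thus largely fixed in advance, and no stability is read from it. The lowest and highest values, all from leaving out 1 library, were 3.07 and 3.15 for CXCL8, 1.39 and 1.46 for CXCL1, 1.71 and 1.82 for CXCL2, 2.27 and 2.52 for CXCL3, 1.78 and 2.15 for CCL20, 0.33 and 0.65 for IL6, 0.80 and 0.95 for IL1A, 1.21 and 1.31 for IL1B, and 0.66 and 0.78 for LIF. At an unadjusted p under 0.05 and a fold change over 2, the called genes numbered 2370 of all genes (872 higher, 1498 lower), 3 in the IL-6 family, 1 among the binding proteins of AU-rich elements and 6 among the transcription regulators. With no fold limit the binding proteins numbered 8, beside 5974 of all 16208 genes. All other counts stayed within 1.5 times the main ones. DESeq2 called 4338 of all genes. With the replicate block 3731 genes were called, and the calls of IL11RA, LIFR and IL23A were lost. Same-numbered libraries did not deviate together (r = -0.0244, 0.00522 and -0.00269), so no shared effect of the replicate number was seen. These values cannot show whether same-numbered libraries were prepared together. Leaving out 1 library gave 3638 to 3907 called genes. Of the 39 called list genes, 30 kept their call in every refit that tested them, and 9 lost it in at least 1: IL23A in 8, LIFR in 6, MYD88 and NFKB1 in 5, IL11RA, CSF3 and NFKBIA in 4, CEBPD in 2 and JUND in 1. At the 2-fold threshold with an unadjusted p, 19 of the 39 were not called, IL6ST, OSMR, SOCS3, ZFP36L1 and KHSRP among them. The cause of these changes was not tested. Counting depth limits CCL20 and IL6 most.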
